A study of Mus musculus with 13 samples.

Results

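The integrated stress response lowers translation initiation when a cell meets amino acid shortage, unfolded protein, viral RNA, heme shortage or mitochondrial damage. Each signal activates 1 of the eIF2 kinases, which phosphorylate the alpha subunit of the initiation factor eIF2. Phosphorylated eIF2 blocks its exchange factor eIF2B, so that most translation falls while the mRNA of the transcription factor ATF4 is translated better. Phosphatase complexes built on PPP1R15A (GADD34) or PPP1R15B (CReP) remove the phosphate. Signals from mitochondria reach the kinase HRI through the inner membrane protease OMA1, which cleaves DELE1. Much of this control acts on protein activity, which RNA arrays do not measure.

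The genes described here are taken as the upstream part of that pathway, although Ppp1r15a is also a target of ATF4. They are the 4 kinases Eif2ak1, Eif2ak2, Eif2ak3 and Eif2ak4, their substrate Eif2s1, the phosphatase subunits Ppp1r15a and Ppp1r15b, the protease gene Oma1, and 0610009O20Rik. That last is the older name under which the array lists Dele1. The genes were chosen by these names among the non-control probes of the array, which gave 9 of the 17257 genes measured, on 12 probes. Of the 12 probes, 11 passed the filter on dim signal (well above background in the mouse channel on at least 6 of 13 arrays), and all 9 genes kept at least 1 probe.

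RNA came from the gastrocnemius, a calf muscle, of male C57BL/6J mice, studied from 12 weeks of age, that ate a purified diet low in fat for 12 weeks. The 7 UCP1 transgenic mice were compared with 6 wild type littermates. The transgene encodes the proton carrier of brown fat mitochondria and is overexpressed in skeletal muscle; the promoter that drives it is not given in the sources used here. Each mouse had 1 array, on which its Cy5-labelled RNA was set against a Cy3-labelled pool of samples. The unit below is the log2 ratio of mouse over pool. A difference is the UCP1 transgenic mean minus the wild type mean of that ratio, with the standard error of the limma fit.

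Across the arrays, 37.1% to 43.2% of 55681 probes were well above background, and the small number of arrays limits the precision of every value. The Ucp1 ratio was -0.20 to 0.85 on the transgenic arrays and at most -2.82 on 5 of the 6 wild type arrays. The array labelled wild type 4 read 0.45, which goes against its label, although its Fgf21 ratio of -3.60 lay within the range of the other wild type arrays. Its mean ratio over 16 genes of the ATF4 arm, -1.61, was the lowest of all arrays (0.11 to 0.46 on transgenic arrays). Those genes were chosen with earlier results of these data known, so that value is no independent check of the label. Its mean over 5 brown adipocyte markers, 0.42, was the highest of all arrays (-0.23 to -0.06 on transgenic arrays). That mean needs a high value of a single marker, Cidea, which ranged from -2.19 to 1.80 on wild type arrays. The highest wild type values of the others were 0.46 (Cox7a1), 0.20 (Dio2), 0.45 (Ppargc1a) and 0.17 (Zic1). Cox7a1 itself differed by -0.62 between the groups, which lowers the transgenic range of this mean. Whether the array labelled wild type 4 holds brown fat RNA was not tested. The mean of this array over the white adipocyte markers, -0.03, was the highest among wild type arrays. This array is called the array labelled wild type 4 throughout, and results that rest on it are also given without it. All 12 skeletal muscle markers were well above background on all 13 arrays. Of these 12, 7 were lower and 1 was higher in UCP1 transgenic muscle by limma at an adjusted p under 0.05 (median difference -0.51), and their mean ratio was -0.24 to -0.01 on transgenic arrays and 0.16 to 0.47 on wild type arrays. Of 9 measured white adipocyte markers 7 were higher (median difference 0.42), with a mean ratio of -0.13 to 0.23 on transgenic and -0.55 to -0.03 on wild type arrays. All 3 blood markers were higher (median difference 0.62; mean ratio -0.41 to 0.81 against -0.87 to -0.15 in wild type). Of 4 measured markers of satellite cells and regenerating fibres, 2 were lower (median difference -0.16). Their mean ratio was 0.03 to 0.20 on transgenic and 0.25 to 0.54 on wild type arrays. Of 4 nerve and Schwann cell markers, 2 were higher (median difference 0.25). Each list for brown adipocytes, macrophages, endothelial cells, fibroblasts and lymphocytes had at most 1 marker higher and 1 lower. Of all genes, 33.0% passed this threshold, 16.8% higher and 16.1% lower. In bulk tissue, fewer cells of a type and less RNA per cell cannot be told apart. The muscle markers did not move together. Among the lower ones Myh4 differed by -0.74 and Pvalb by -0.91, and the higher one was Myh1 (0.62). The 4 that did not pass were Ckm (-0.03), Myh2 (-0.0056), Atp2a1 (-0.05) and Mylpf (-0.11). The cause of this split was not tested.

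Of the 9 genes, 3 were higher in UCP1 transgenic muscle and none was lower by limma, with p-values adjusted by Benjamini-Hochberg over all genes (threshold 0.05). They were Ppp1r15a, 0610009O20Rik (Dele1) and Eif2s1. At an unadjusted p under 0.05 the same 3 were higher and 1, Eif2ak1, was lower. The share of all genes at that unadjusted threshold was not counted, so this count has no background. Of all genes measured, 33.0% passed the adjusted threshold, 16.8% higher and 16.1% lower, so a share of 3 in 9 is near the background. Without the array labelled wild type 4 the counts were 3 higher and 1 lower, Eif2ak1, in a fit in which 5627 of 17257 genes passed. The median difference of the 9 genes was 0.05, and that of all genes was -0.0011. The members thus had small differences: the one of largest size, Ppp1r15a, ranked 2143 among 17257 genes by absolute difference, and Dele1 ranked 4259.

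**Figure D1:**
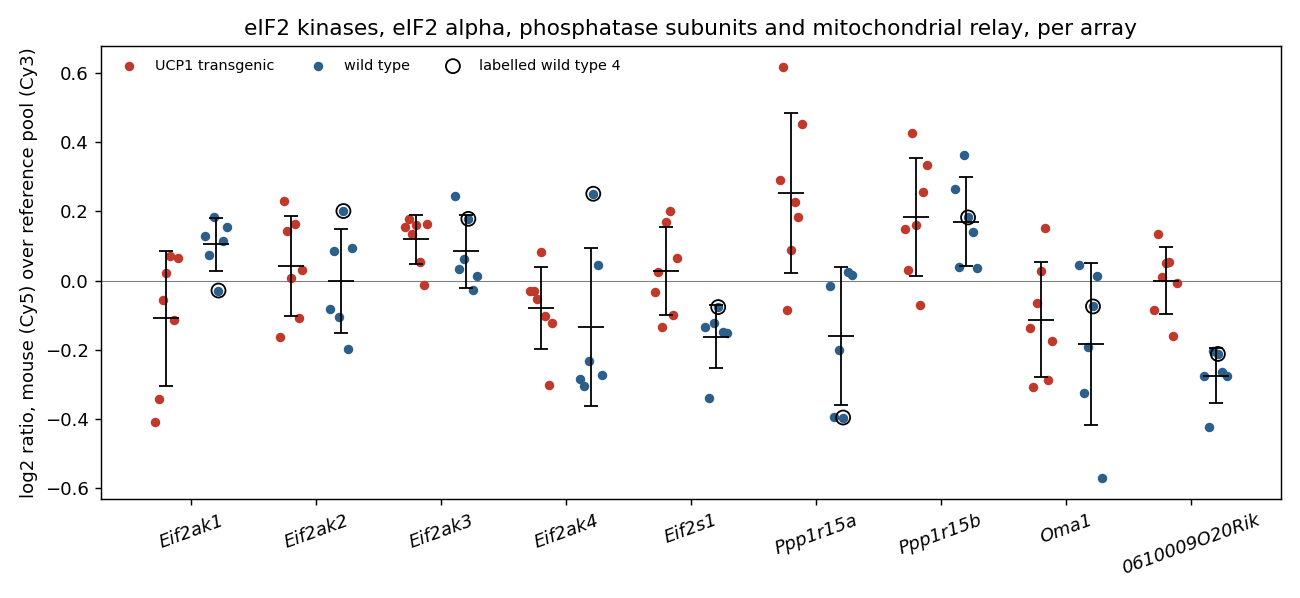
Log2 ratio of mouse RNA (Cy5) over the reference pool (Cy3) on each array for the 9 genes, with UCP1 transgenic arrays left (red, n = 7) and wild type arrays right (blue, n = 6) of each gene's position; bars are the mean ± SD, and the circle marks the array labelled wild type 4. For 0610009O20Rik the lowest transgenic array (-0.16) lies above the highest wild type array (-0.20); for each of the other 8 genes the groups overlap.

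The sequences below were chosen for the gene with the largest difference and for a gene whose probes disagreed. The Ppp1r15a probe, 60 bases at chr7:52778320-52778379 (mm9, minus strand, per the file headers), ends in a run of overlapping ATTTA pentamers, here in capitals. Such pentamers are the core of AU-rich elements, which shorten the life of many inducible mRNAs.

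Ppp1r15a, last 30 bases of the probe: cctattATTTATTTATTTATTTAtttgaat

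The run holds 4 ATTTA pentamers. Of the 55681 probes of the array, 7 (0.0126%) hold at least 4 and 92.3% hold none. The pentamer was not among the motifs planned beforehand, and the cut of 4 is the count of this probe itself. The share is therefore a description only. Whether the element acts in this muscle is not measured here.

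RefSeq promoter windows (250 bases before to 50 after the gene start, GRCm38.p6) were found for 7 of the 9 genes, in 8 windows, 2 of them for Eif2ak4. They were searched by the array's gene names, so Dele1 was looked up as 0610009O20Rik. The 250 bases before the start of Ppp1r15a lie at chr7:45526269-45526518 on the minus strand. They are shown because this gene is a textbook target of ATF4 and had the largest difference. Capitals mark a TGACGTCA palindrome, the cyclic AMP response element that ATF and CREB factors can bind, which was searched for after the sequence had been seen.

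Ppp1r15a, 250 bases upstream: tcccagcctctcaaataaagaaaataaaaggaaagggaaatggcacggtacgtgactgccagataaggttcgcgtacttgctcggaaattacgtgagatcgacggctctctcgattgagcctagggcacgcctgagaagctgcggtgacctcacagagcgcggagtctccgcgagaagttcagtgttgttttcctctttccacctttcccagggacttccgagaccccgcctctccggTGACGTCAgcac

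On both strands, TGACGTCA was held by 1.79% of the 32851 windows of the same length, and among the 8 member windows only by that of Ppp1r15a. The C/EBP-ATF response element, written TGATGNAA, was in 3.97% of all windows and in none of the 8 member windows. CCAAT was in 37.4% of all windows, once in that of Eif2ak1 and 6 times in that of Eif2ak3. TGACNNNGC, the core of the antioxidant response element, was in 12.4% of all windows, and among the 8 member windows once in that of Ppp1r15a, past the gene start. A match is a string of letters, not a bound site, and a missing match says only that these letters are not in this window.

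Eif2ak1 encodes HRI, first known as the heme-sensing kinase of red cell precursors and also the kinase to which cleaved DELE1 binds. Its ratio was -0.41 at the lowest, -0.06 at the median and 0.07 at the highest in UCP1 transgenic muscle, and -0.03, 0.12 and 0.19 in wild type muscle. The 5 highest wild type arrays lay above every transgenic array, 2 transgenic arrays stood low at -0.41 and -0.34, and the groups overlapped through the array labelled wild type 4, the lowest of its group. The difference was -0.21 ± 0.08 (95% interval -0.39 to -0.04), and it missed the threshold (limma, adjusted p = 0.0525).

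That call changed with single arrays. Eif2ak1 passed without the array labelled wild type 4 (-0.24, adjusted p = 0.0398 by limma) and without transgenic array 4, 5 or 7 (adjusted p = 0.0443, 0.0343 and 0.0324). Leaving out any other array gave adjusted p-values of 0.0618 to 0.115, with the smallest differences, -0.16 and -0.17, when transgenic array 1 or 2 was left out. Those 2 arrays share a slide. Within the 4 slides the difference was -0.50, -0.19, 0.08 and -0.16, the positive one on the slide that held the array labelled wild type 4.

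Eif2ak2 encodes PKR, which is activated by double-stranded RNA and is itself induced by interferon. Its ratio was -0.16, 0.03 and 0.23 (lowest, median, highest) in UCP1 transgenic and -0.20, 0.00 and 0.20 in wild type muscle. The groups covered nearly the same range. The difference of 0.04 ± 0.08 had a 95% interval of -0.12 to 0.21, a ratio of 0.917 to 1.16 between the groups (limma, adjusted p = 0.715).

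Eif2ak3 encodes PERK, the kinase of the endoplasmic reticulum membrane. It read -0.01, 0.15 and 0.18 in UCP1 transgenic and -0.03, 0.05 and 0.25 in wild type muscle, so that the wild type arrays spread further on both sides. The difference was 0.03 ± 0.06, with a 95% interval of -0.10 to 0.17 (ratio 0.935 to 1.12; limma, adjusted p = 0.716).

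Eif2ak4 encodes GCN2, which senses uncharged tRNA and so the amino acid supply. Its brightest probe, at chr2:118300892-118300951 (mm9), read -0.30, -0.05 and 0.08 in UCP1 transgenic and -0.31, -0.25 and 0.25 in wild type muscle. Of the wild type arrays 4 stood at -0.23 or lower, and the array labelled wild type 4 was the highest. The difference was 0.05 ± 0.09, with a 95% interval of -0.14 to 0.24 (ratio 0.910 to 1.18; limma, adjusted p = 0.695), and 0.13 without the array labelled wild type 4 (adjusted p = 0.226). A second probe differed by -0.01 (adjusted p = 0.948 over all kept probes, of which 31.8% passed). The third was well above background on 3 transgenic and 1 wild type arrays and was not tested.

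All 4 kinase probes were dim. Their mean Cy5 spot signals were 75.8 (Eif2ak2), 89.2 (Eif2ak3), 119.6 (Eif2ak4) and 171 (Eif2ak1), over local backgrounds of 30.9 to 33.5. The offset of 50 added before the logarithm draws ratios at such signals toward 0. With Agilent's own log ratio, which has no such offset, the differences were -0.30 for Eif2ak1, 0.09 for Eif2ak2, 0.08 for Eif2ak3 and 0.04 for Eif2ak4. No kinase passed the threshold there either, and the adjusted p of Eif2ak1 was 0.0509.

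**Figure D2:**
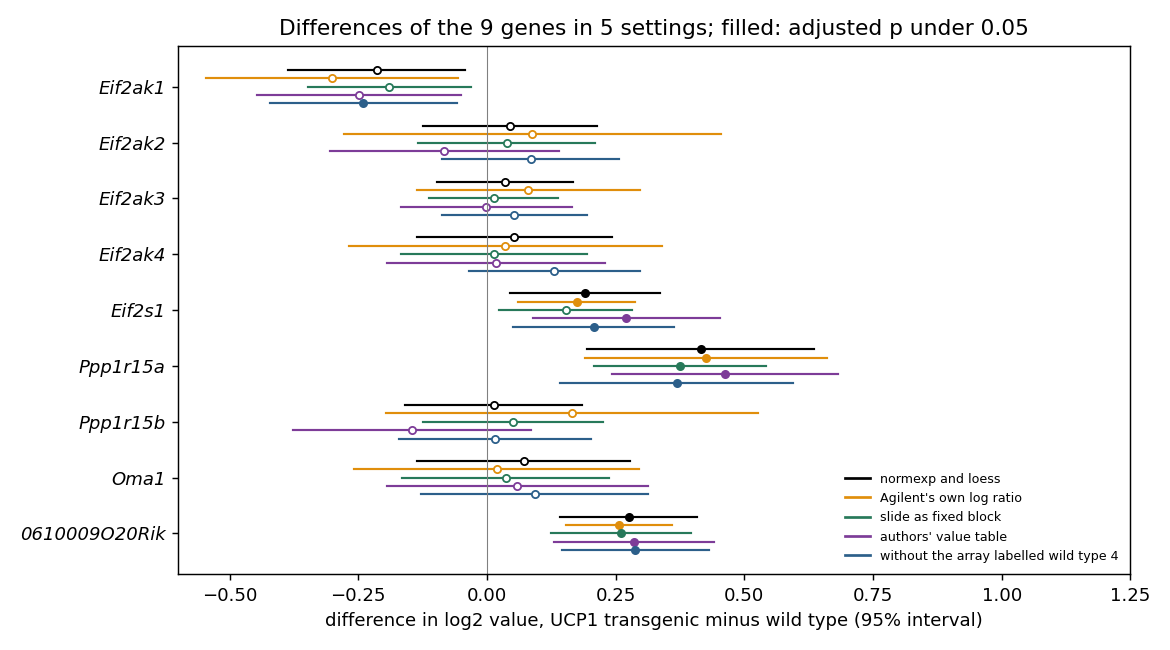
Difference in log2 value, UCP1 transgenic minus wild type, with its 95% interval for each of the 9 genes in 5 settings of the limma fit; filled points passed an adjusted p of 0.05. Ppp1r15a and 0610009O20Rik are filled in all 5 settings, Eif2s1 is open with the slide as a block, and Eif2ak1 is filled only without the array labelled wild type 4.

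Whether the kinases differed from one another in their response was tested as the change in their within-array difference, by an exact two-sided permutation test over all 1716 regroupings (smallest p 0.000583), adjusted over 7 pairs. None of the 7 pairs passed after adjustment, and 2 had an unadjusted exact p under 0.05. The Eif2ak1 difference minus the Eif2ak3 difference was -0.25 (exact p = 0.0379, adjusted 0.117). It was -0.26 against Eif2ak2 (exact p = 0.0501, adjusted 0.117) and -0.27 against Eif2ak4 (exact p = 0.0967, adjusted 0.169). Without the array labelled wild type 4 these 3 pairs passed, at -0.29, -0.33 and -0.37, each with an adjusted exact p of 0.0442. No pair passed when any other array was left out (lowest adjusted exact p 0.0606). The 3 pairs among Eif2ak2, Eif2ak3 and Eif2ak4 gave -0.02 to 0.01 on all 13 arrays, with an adjusted exact p of 0.934 each. Those regroupings cross the slides, on which arrays resembled each other more (median residual correlation 0.126 on the same slide, -0.144 on different slides). With the slide as a block and the 162 regroupings within slides (smallest p 0.00617), chosen after seeing the data, none of the 7 pairs passed either. Eif2ak1 then differed by -0.20 from Eif2ak3 (exact p = 0.0247, adjusted 0.173), by -0.23 from Eif2ak2 (exact p = 0.0988, adjusted 0.23) and by -0.20 from Eif2ak4 (exact p = 0.204, adjusted 0.356). This test within slides was not run without the array labelled wild type 4.

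Eif2s1 encodes eIF2 alpha, the subunit that carries the regulated serine. Its brighter probe (chr12:79986224-79986283, mm9) read -0.14, 0.03 and 0.20 in UCP1 transgenic and -0.34, -0.14 and -0.08 in wild type muscle. The groups overlapped in a narrow band, and wild type array 2 stood apart at the low end. The difference was 0.19 ± 0.07 (1.14-fold, 95% interval of the log2 difference 0.04 to 0.34; limma, adjusted p = 0.0422).

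This call was fragile. It was lost on leaving out any wild type array other than number 4, or any of the transgenic arrays 2, 4, 5 and 7; the adjusted p was then 0.055 to 0.109, with differences of 0.15 to 0.20. Without the array labelled wild type 4 it held (0.21, adjusted p = 0.0396). Within slides the difference was 0.13, 0.10, 0.26 and 0.13, and a fixed block for the slide gave 0.15 (adjusted p = 0.0605).

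The second Eif2s1 probe, annotated to the same transcript and lying downstream at chr12:79987922-79987981, read -0.21, -0.12 and 0.24 in UCP1 transgenic and -0.22, -0.04 and 0.23 in wild type muscle. Its difference was -0.02 ± 0.08 (adjusted p = 0.861). This probe was dimmer, with a mean Cy5 signal of 105.8 against 983.6 for the first. The ends of both probes are shown because the readings differ.

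Eif2s1, brighter probe, last 30 bases: ctttctatataaaatgtattcaagcaaaca
Eif2s1, dimmer probe, last 30 bases: tttcaaagcaagttccagcgctgttacaca

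Averaged over both probes, Eif2s1 differed by 0.08 and did not pass (limma, adjusted p = 0.333). The files do not say which part of the transcript each probe reads.

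Ppp1r15a encodes GADD34, the stress-induced subunit that directs protein phosphatase 1 to eIF2 alpha and is itself a target of ATF4. It read -0.09, 0.23 and 0.62 in UCP1 transgenic muscle and -0.40, -0.11 and 0.02 in wild type muscle. Of the 7 transgenic arrays 6 lay above all wild type arrays, and transgenic array 3, at -0.09, was the exception. The difference was 0.42 ± 0.11, or 1.33-fold with a 95% interval of 1.14 to 1.55 (limma, adjusted p = 0.00457).

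The Ppp1r15a difference was positive within each of the 4 slides, at 0.47, 0.21, 0.55 and 0.30, and a fixed block for the slide gave 0.37 (adjusted p = 0.0014). Transgenic array 3 shared its slide with 2 wild type arrays whose mean was -0.30, below it. The Ppp1r15a difference passed without each array in turn, with adjusted p-values of 0.00144 to 0.0143, and without the array labelled wild type 4 it was 0.37 (adjusted p = 0.0129).

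Ppp1r15b encodes CReP, the constitutive counterpart of GADD34. Its single probe was well above background on 5 arrays of each group, with a mean Cy5 signal of 73.1. It read -0.07, 0.16 and 0.43 in UCP1 transgenic and 0.04, 0.16 and 0.36 in wild type muscle, with equal medians at this rounding. The difference was 0.01 ± 0.08, with a 95% interval of -0.16 to 0.19 (ratio 0.895 to 1.14; limma, adjusted p = 0.924). The change of Ppp1r15a minus that of Ppp1r15b was 0.40 (exact permutation p = 0.0355), and after adjustment over the 7 pairs it did not pass (0.117). With the slide as a block it was 0.32 (exact p = 0.0556 within slides, adjusted 0.194).

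Oma1 encodes the zinc protease of the inner mitochondrial membrane that becomes active when the membrane potential falls. Its probe spans chr4:102994426-102997635 (mm9), a stretch longer than its 60 bases. It read -0.31, -0.14 and 0.15 in UCP1 transgenic and -0.57, -0.13 and 0.05 in wild type muscle. The groups overlapped over most of their range, and wild type array 6 was the lowest of all. The difference was 0.07 ± 0.10, with a 95% interval of -0.14 to 0.28 (ratio 0.910 to 1.21; limma, adjusted p = 0.624).

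0610009O20Rik is Dele1, whose protein is cleaved by OMA1, accumulates in the cytosol and activates HRI. Its probe lies on chromosome 18 from 38422108 to 38422167 (mm9). It read -0.16, 0.01 and 0.14 in UCP1 transgenic muscle and -0.42, -0.27 and -0.20 in wild type muscle. It was the only one of the 9 genes whose groups did not overlap, which was so in 7.48% of all genes with transgenic higher and in 7.28% with transgenic lower. The difference was 0.28 ± 0.06, or 1.21-fold (95% interval of the log2 difference 0.14 to 0.41; limma, adjusted p = 0.00214).

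Within slides the Dele1 difference was 0.30, 0.32, 0.27 and 0.18. Leaving out each array in turn gave 0.25 to 0.30 with adjusted p-values of 0.00105 to 0.00703, and the array labelled wild type 4 made little difference (0.29 without it). The probe was bright, with a mean Cy5 signal of 911.3, and Agilent's own log ratio gave 0.26 (adjusted p = 0.000767).

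**Figure D3:**
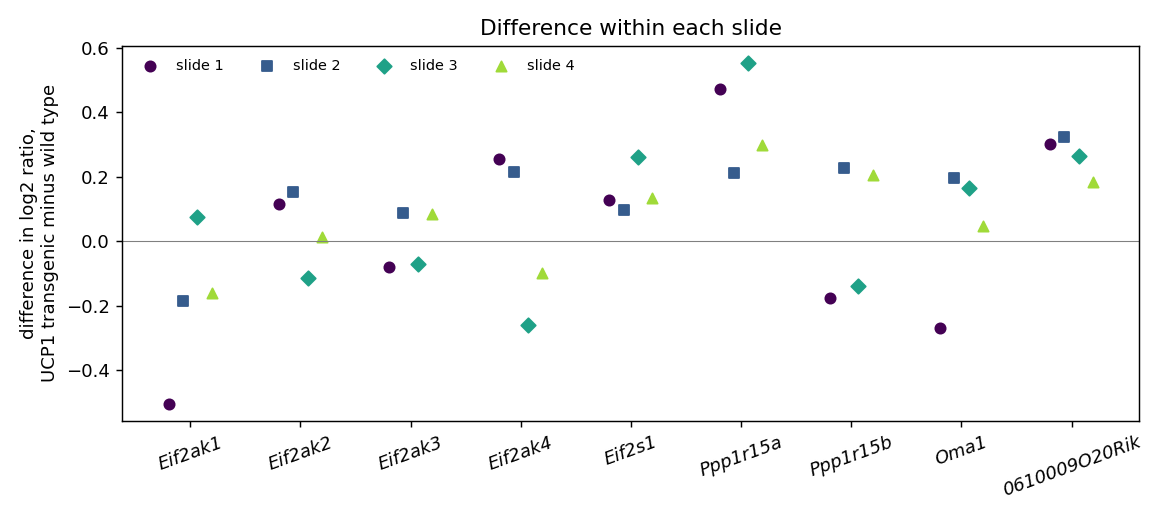
Difference in log2 ratio between the UCP1 transgenic and wild type means of each slide, for the 9 genes and the 4 slides (1 or 2 arrays of each group per slide, so no error bars). Ppp1r15a, Eif2s1 and 0610009O20Rik are above 0 on all 4 slides, from 0.10 to 0.55; the other 6 genes have both signs.

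Markers of adipocytes, blood, muscle, satellite cells and regenerating fibres, and nerve moved with the groups. Each of these 3 differences is therefore given with the mean ratio of the adipocyte markers as a covariate. The difference was then 0.63 ± 0.21 for Ppp1r15a (limma, adjusted p = 0.0753), 0.16 ± 0.13 for Dele1 (adjusted p = 0.557) and 0.07 ± 0.14 for Eif2s1 (adjusted p = 0.85). None passed in that fit, in which the standard errors were larger and 1397 of all genes passed. Eif2ak4 differed by -0.46 and passed there (adjusted p = 0.031). The covariate was -0.13 to 0.23 on transgenic and -0.55 to -0.03 on wild type arrays, so it nearly separates the groups. That fit therefore cannot tell adipocyte content from genotype, for these 3 genes or for Eif2ak4. The part of the other cell type markers in the results was not tested.

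Across the 13 arrays the ratios of Dele1 and Eif2s1 had a Pearson correlation of 0.833, and 0.671 after the group means were removed. For Dele1 and Ppp1r15a it was 0.718 and 0.285, and for Eif2s1 and Ppp1r15a 0.616 and 0.256. These are descriptions over arrays that share a reference pool and slides. By the same measure over all genes, the patterns most like that of Ppp1r15a were those of Pus7 (0.935, difference 0.21) and Il6ra (0.935, difference 0.25). For Dele1 the closest named gene was Lrrc57 (0.957, difference 0.21), for Eif2s1 it was Med10 (0.927, difference 0.30), and for Eif2ak1 it was Cmas (0.903, difference -0.11). The closest for the other 5 members were 9130011E15Rik for Eif2ak2 (0.853), Tfg for Eif2ak3 (0.860), Atp6v0b for Eif2ak4 (0.889), Wipf2 for Ppp1r15b (0.866) and 0610011L14Rik for Oma1 (0.862). None of these 5 passed the threshold, nor did Pus7 (limma, adjusted p = 0.0832) or Cmas (adjusted p = 0.25).

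The other subunits of eIF2 and of its exchange factor eIF2B showed small differences. Of 8 measured, 2 were higher, none was lower and 6 did not pass (median difference 0.16). Of all genes, 33.0% passed, 16.8% higher and 16.1% lower. The counts of this and the following lists are to be read against those shares. Eif2s2, which encodes eIF2 beta, read 0.20 to 0.39 in UCP1 transgenic and -0.34 to 0.01 in wild type muscle, with no overlap and a difference of 0.49 ± 0.07 (limma, adjusted p = 1.09e-05). Its second probe differed by 0.06 and did not pass, as with Eif2s1. Eif2b1, the alpha subunit of eIF2B, was higher by 0.24 ± 0.07 (adjusted p = 0.0142).

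Of 12 measured partners and inhibitors of the kinases, 1 was higher, 3 were lower and 8 did not pass (median difference -0.14). Of all genes, 33.0% passed. Gcn1l1, whose protein GCN1 is the ribosome-bound activator of GCN2, was higher by 0.24 ± 0.06 (limma, adjusted p = 0.00336), and its second probe by 0.29. Impact, an inhibitor of that activation, read -0.57 to 0.06 in UCP1 transgenic and -0.49 to 0.61 in wild type muscle, and was lower by 0.39 on the log2 scale (difference -0.39 ± 0.14, adjusted p = 0.0401).

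Hsp90aa1 and Cdc37, the chaperone and co-chaperone that mature many kinases, differed by -0.72 ± 0.23 (limma, adjusted p = 0.021) and -0.21 ± 0.08 (adjusted p = 0.0365). The 3 lower calls of this list depended on single arrays. Without the array labelled wild type 4 the 3 differences were -0.52, -0.97 and -0.26, and 4 genes of the list were lower. Without wild type array 5 or 6 none was. On leaving out any 1 of wild type arrays 1 to 3, or transgenic array 3, there was 1. Without wild type array 5 or 6, Impact differed by -0.30 or -0.37 (adjusted p = 0.109 and 0.0751), Hsp90aa1 by -0.64 or -0.58 (adjusted p = 0.0534 and 0.0595), and Cdc37 by -0.22 or -0.16 (adjusted p = 0.0551 and 0.0987). Hspa5, the endoplasmic reticulum chaperone that holds PERK inactive, did not pass (0.22 ± 0.11, adjusted p = 0.161).

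Of 7 genes for the catalytic subunits of protein phosphatase 1 and partners of the eIF2 phosphatase, 1 was higher, 2 were lower and 4 did not pass (median difference -0.02). Of all genes, 33.0% passed. Ppp1cb and Ppp1cc, which encode 2 of the catalytic subunits, differed by -0.30 ± 0.08 (limma, adjusted p = 0.00447) and -0.38 ± 0.09 (adjusted p = 0.00279). All 3 probes of Ppp1cc were lower, by 0.34 to 0.38 in size. Neither passed with median centring of the arrays in place of loess, at -0.0078 (Ppp1cb, adjusted p = 0.985) and -0.082 (Ppp1cc, adjusted p = 0.848), a setting in which the median of all genes was 0.14. Ppp1cb also missed the threshold with the authors' value table (-0.22, adjusted p = 0.058) and with the adipocyte covariate (-0.14, adjusted p = 0.672). Ppp1ca, the third catalytic gene, did not pass (0.12, adjusted p = 0.137). The probes of 2 further genes disagreed. The brightest of 5 probes of Ppp1r2, an inhibitor of protein phosphatase 1, differed by -0.02 (adjusted p = 0.891 over all kept probes), while another was lower (-0.29, adjusted p = 0.00417). For Ppp1r8, a nuclear inhibitor, 1 probe gave 0.16 and the other -0.056, neither past the threshold. Smarcb1, whose protein binds GADD34, was just inside the threshold (0.24, adjusted p = 0.0497) and did not pass without the array labelled wild type 4 (0.21, adjusted p = 0.0991), nor without any 1 of wild type arrays 1, 2, 3 and 5 and transgenic arrays 3 to 7 (adjusted p up to 0.104).

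Of 12 mitochondrial genes listed as substrates of OMA1 or as its neighbours in or beside the inner membrane, matrix proteins included, 4 were higher, 2 were lower and 6 did not pass (median difference 0.11). Of all genes, 33.0% passed. Hspa9, the matrix chaperone mortalin, read 0.14 to 0.65 in UCP1 transgenic and -0.94 to -0.59 in wild type muscle, a difference of 1.14 ± 0.08 (limma, adjusted p = 3.62e-09). Lonp1, the matrix protease that degrades damaged proteins, was higher by 0.35 ± 0.06 (adjusted p = 0.000283). Spg7, a subunit of the m-AAA protease, and Timm23, the import channel of the inner membrane, differed by -0.33 ± 0.07 (adjusted p = 0.00131) and -0.32 ± 0.06 (adjusted p = 0.000489). Neither passed with median centring, at -0.029 (Spg7, adjusted p = 0.933) and -0.0011 (Timm23, adjusted p = 0.998), or with the adipocyte covariate, at -0.27 (adjusted p = 0.319) and -0.34 (adjusted p = 0.127). Among the prohibitins, which form a scaffold in the inner membrane, the brighter Phb2 probe was higher (0.28, adjusted p = 0.00274 over all kept probes) and the other did not pass (0.18, adjusted p = 0.176). The 2 probes of Phb had opposite signs, 0.15 and -0.11, and neither passed. Opa1, the fusion protein that OMA1 cleaves, read -0.28 to -0.03 in UCP1 transgenic and -0.27 to -0.01 in wild type muscle and did not pass (-0.10, adjusted p = 0.273).

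**Figure D4:**
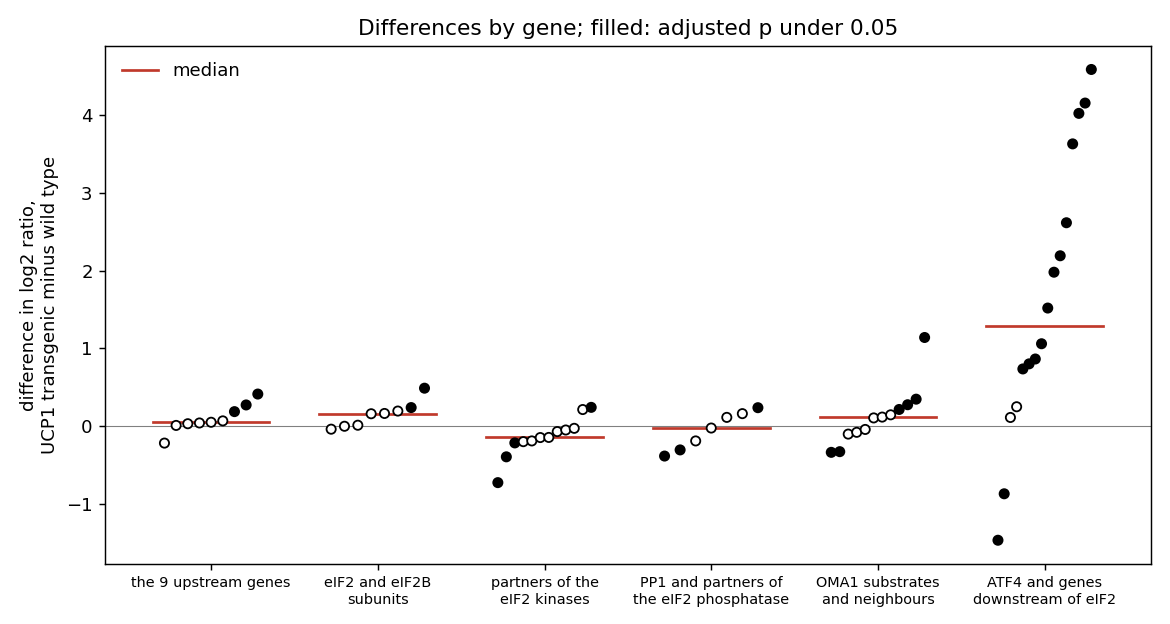
Difference in log2 ratio, UCP1 transgenic minus wild type, for each measured gene of 6 groups; filled points passed an adjusted p of 0.05 and red lines are group medians. The 9 upstream genes lie between -0.21 and 0.42, the highest being Ppp1r15a, which is also a target of ATF4. The 16 genes of the ATF4 arm reach 4.58. The groups of genes were chosen with earlier results of these data known, so this contrast is a description.

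Among the listed genes downstream of eIF2 the differences were larger. Of 16 genes of ATF4 and its arm, all measured, 12 were higher, 2 were lower and 2 did not pass (median difference 1.29). Of all genes, 33.0% passed. In 12 of the 16 the groups did not overlap, as in 14.8% of all genes. This list holds genes chosen with earlier results of these data known. It is no independent evidence of its direction, of its size or of a contrast with the 9 upstream genes. Trib3, Asns, Fgf21 and Gdf15 differed by 4.58, 4.15, 4.02 and 3.63, and Atf4 itself read 0.43 to 0.66 in UCP1 transgenic and -0.32 to -0.20 in wild type muscle, a difference of 0.80 ± 0.06 (limma, adjusted p = 2.93e-09). Ddit3, which encodes CHOP and is placed upstream of Ppp1r15a in textbook accounts, was higher by 1.52 ± 0.09 (adjusted p = 2.06e-10). Ddit4 and Vldlr were lower, with differences of -1.46 and -0.86, and Atf3 and Cebpb did not pass.

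As Eif2ak2 is an interferon-induced gene, 20 other such genes were counted. Of the 14 measured, 1 was higher, none was lower and 13 did not pass (median difference 0.07). Of all genes, 33.0% passed. The gene that passed was Bst2, at 0.30 ± 0.09 (limma, adjusted p = 0.0108). Without wild type array 1, 3 genes of this list were higher, and without transgenic array 7, 2 were.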

How the data were processed

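Gene expression was measured on 13 Agilent 2-colour 8x60K arrays, 7 of UCP1 transgenic and 6 of wild type mice, each 1 mouse against the same pool. Per the labels, 200 ng of RNA entered labelling and the dyes were not swapped. The deposited scanner files hold, per the file headers, linear spot and background intensity, with a log10 ratio and flags with other values (well above background, outlier, saturated, control), from Agilent Feature Extraction 10.5.1.1, per the submitters' processing notes. The deposited value table (25583 rows) was read as the authors' log2 intensity; each column had a median of 7.58 and correlated with its array's log2 Cy5 signal at 0.996 to 0.999. Its processing is not given in the sources used here, beyond a normalization with other samples of a larger series.

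Signals were corrected with normexp (offset 50) and normalized by loess within arrays with limma 3.58.1 in R 4.3.3; 3671 of 62976 spots were controls, 278 to 377 outlier spots per array were left out, and 0 were saturated. A probe was kept if its Cy5 signal was flagged well above background on 6 or more arrays (22716 of 55681), and the brightest kept probe stood for a gene. Groups were compared with lmFit and eBayes over 17257 genes, two-sided, with Benjamini-Hochberg adjustment; errors of differences are standard errors. Coordinates are mm9, per the file headers; promoters are from RefSeq (GRCm38.p6). All 9 members were matched to RefSeq names. No per-sample column was left unmapped. The code was tested on simulated data.

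The members and lists were chosen with earlier results of these data known. All 9 members are named, with every probe; from each list up to 4 genes past the threshold with the largest absolute difference, and genes whose probes disagree. Pgam5 also passed in the OMA1 list. Atf4, Ddit3, Ddit4, Vldlr, Atf3, Cebpb, Hspa5, Opa1 and Ppp1ca were named after their values had been seen. Alternatives were another background correction, scaling, filter and probe rule, the value table, slide and replicate blocks, an adipocyte covariate, regrouping of pairs within slides (chosen after seeing the data), and leaving out each array.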

Additional observations from a re-analysis of the deposited data

Results flagged for a closer look

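In 2 of 18 groups tested (9 genes, 2 groups each), 1 array lay far from the rest of its group by Dixon's test, which by chance flags about 1 group in 20. Both were wild type array 2. For Eif2s1 it read -0.34, against -0.15 for the next array, a gap of 0.717 of the range where the critical value is 0.625. For 0610009O20Rik it read -0.42, against -0.28 for the next array (0.665 of the range). Without wild type array 2 the difference was 0.15 for Eif2s1 (limma, adjusted p = 0.109) and 0.25 for 0610009O20Rik (adjusted p = 0.00703).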

How the results depend on the processing

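Ppp1r15a passed in 24 of 25 other fits and Dele1 in 23 of 25, while Eif2s1 passed in 10 of 25 and Eif2ak1, not called on all arrays, in 9. The number of members higher, 3 in the main setting, was 1 with median centring in place of loess and 0 with the adipocyte covariate, and 2 to 3 when 1 array was left out. The number lower, 0, was 1 with Cy5 alone, a filter on all 13 arrays, the mean over probes, the slide as a random block, the replicate block (Eif2ak1 in each) and the adipocyte covariate (Eif2ak4), and 0 to 1 when 1 array was left out. All genes past the threshold numbered 1306 with median centring and 1397 with the adipocyte covariate, against 5692, and 5139 to 5704 when 1 array was left out. Of the pairs, 1 passed with median centring (Ppp1r15a against Ppp1r15b, 0.60, adjusted exact p = 0.0408), and 0 to 3 when 1 array was left out. Median centring shifted the median difference of all genes to 0.14, and 79.7% of its calls were higher, against 51.1%. In that setting Ppp1r15a differed by 0.67 (limma, adjusted p = 0.0272), Dele1 (0610009O20Rik) by 0.51 (adjusted p = 0.13), Eif2s1 by 0.42 (adjusted p = 0.24) and Eif2ak1 by -0.046 (adjusted p = 0.894). Relative to the shift, a quantity that was not tested, these were 0.53, 0.37, 0.28 and -0.19. With the filter on all 13 arrays Ppp1r15b was not tested. Of the list genes, Impact passed in 10, Cdc37 in 11, Smarcb1 in 11, Hsp90aa1 in 19, Ppp1cb in 22, Bst2 in 22, and Spg7, Timm23, Eif2b1 and Gcn1l1 in 23 of 25 fits each; all of these were lost with median centring and with the adipocyte covariate. Ppp1cc and Lonp1 were lost with median centring and Eif2s2 with the covariate. Over the 12 settings on all arrays, 11 to 12 genes of the ATF4 arm, 1 to 5 of the OMA1 list and 0 to 3 of the eIF2 and eIF2B subunits were higher, and 0 to 5 kinase partners, 0 to 3 phosphatase genes and 0 to 2 of the OMA1 list were lower.

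Signs turned for small differences. With the adipocyte covariate they were -0.10 for Eif2ak2, -0.10 for Eif2ak3, -0.46 for Eif2ak4, -0.022 for Ppp1r15b, -0.18 for Oma1, 0.34 for Hsp90aa1 and 0.017 for Cdc37. With the authors' value table they were -0.083 for Eif2ak2, -0.00086 for Eif2ak3 and -0.14 for Ppp1r15b. Cdc37 was 0.10 with median centring, Eif2ak4 -0.011 with Cy5 alone and Ppp1r15b -0.0055 without background correction. When 1 array was left out, Ppp1r15b was -0.028 to 0.055 and Oma1 -0.0065 to 0.12. The causes were not tested.

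The residuals of same-numbered arrays correlated at -0.226 to 0.23, within the -0.312 to 0.394 of any pair. They were positive for numbers 1, 3, 4 and 6, whose arrays share a slide, and negative for 2 and 5, whose arrays do not. These values therefore cannot decide whether the replicate numbers pair the mice. With the replicate number as a block 5365 genes passed, 2 members were higher (Ppp1r15a 0.38, Dele1 0.28), 1 was lower and Ppp1r15b was -0.012. The labels call the samples individual mice. Signals near background limit what can be seen for the kinases, Ppp1r15b and Oma1.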
